A study of Homo sapiens with 10 samples.

Results

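The kallikrein-related peptidases *KLK5* to *KLK14* are 10 neighbouring genes on chromosome 19, and their mRNA levels were followed in HCT116, a human colorectal cancer cell line, after loss of ZMAT3 and after knockdown of p53. The family was chosen by fold changes already known in both comparisons, so the differences of its members between groups are given as a description, with their errors and without a p-value. Of the 10 genes, 5 (*KLK5*, *KLK6*, *KLK7*, *KLK8*, and *KLK10*) had values among the 13029 genes of the *ZMAT3* experiment, and 8 had values among the 17642 genes of the siRNA experiment, which added *KLK13*, *KLK14*, and a row named *KLK9*. The 5 genes of the first experiment all had values in the second. *KLK11* and *KLK12* had values in neither and were not analysed here.

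Kallikrein-related peptidases are secreted serine proteases that are made as inactive proenzymes and are switched on when a short propeptide is cut off, often by another member of the family. In the upper epidermis *KLK5* and *KLK14* encode trypsin-like enzymes and *KLK7* a chymotrypsin-like enzyme, which together cut the desmosomal proteins that hold corneocytes to each other. Secreted inhibitors such as LEKTI restrain them, and several members cut protease-activated receptors on the surface of epithelial cells, in the intestine and its tumours as well as in skin. p53 is a transcription factor and tumour suppressor, and ZMAT3 is an RNA-binding zinc finger protein encoded by a p53 target gene.

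RNA-seq was available from 3 *ZMAT3*-WT and 3 *ZMAT3*-KO cultures, and from 2 cultures transfected with siCTRL, a control siRNA, and 2 transfected with sip53, a pool of siRNAs against p53, for 72 hours. Both *ZMAT3* groups were single-cell clones of HCT116. The knockout had been made with Cas9 and a pair of guides around the p53 response element in an intron of *ZMAT3*, and 1 clone stood for each genotype, so the spread between replicates was that between cultures of a clone and differences between clones cannot be told apart from the genotype. The labels of these libraries add EV and unt, which were not explained, so no treatment was read from them. All cells were grown in DMEM with serum, and the edited cells had been selected with puromycin before the clones were isolated.

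The deposited values carry no depth, which is therefore unknown for every library. The *ZMAT3* table gives log2 CPM, log2 counts scaled to a common library total, ranging from -6.62 to 13.51, and the siRNA table gives FPKM, which divides fragments by the length of the transcript and the size of the library, with library sums of 708634 to 829230. *ZMAT3* itself stood at 5.00, 5.20, and 5.26 log2 CPM in *ZMAT3*-WT and at 2.25, 2.34, and 2.20 in *ZMAT3*-KO, and *CDKN1A*, the p53 target that encodes p21, fell from 525.01 and 481.06 FPKM with siCTRL to 34.22 and 37.67 with sip53. Of 12 markers of colorectal epithelium, 7 were in the *ZMAT3* table, with summed levels of 5759 to 6085 CPM in *ZMAT3*-WT and 3161 to 3242 CPM in *ZMAT3*-KO, and *VIL1*, *CDX1*, *CDH17*, *LGALS4*, and *GPA33* were not in it. The largest terms of that sum in *ZMAT3*-WT were *KRT8*, *KRT18*, and *KRT19*, at means of 11.65, 10.48, and 9.58 log2 CPM. The sum therefore says little about the other markers. The 9 markers in the siRNA table summed to 3739 to 3975 FPKM with siCTRL and 3536 to 4172 FPKM with sip53. Among markers of other cells, the T cell marker *CD3E* and the pan-leukocyte marker *PTPRC* had no row in either table. *CD68* was the only 1 of 6 immune markers in the *ZMAT3* table (1.61 to 2.12 CPM in *ZMAT3*-WT, 3.20 to 3.88 in *ZMAT3*-KO), and 3 of 6 summed to 3.93 to 10.8 FPKM with siCTRL and to 13.5 to 27.7 with sip53. The fibroblast markers were represented by 1 of 7 genes (9.16 to 9.79 CPM in *ZMAT3*-WT, 10.4 to 10.9 in *ZMAT3*-KO) and by 2 of 7 (4.22 to 5.64 FPKM with siCTRL, 6.12 to 7.07 with sip53). The part of these marker levels in the values of the kallikrein genes was not tested.

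The family lies on the minus strand of chromosome 19 (hg38, GENCODE release 44), where *KLK5* to *KLK14* span 141 kb from 50943303 to 51084245. The genes follow each other as *KLK5* (50943303 to 50953093), *KLK6* (50958631 to 50969673), *KLK7* (50976468 to 50984099), *KLK8* (50996007 to 51002711), *KLK9* (51002508 to 51009634), *KLK10* (51012739 to 51020175), *KLK11* (51022216 to 51028039), *KLK12* (51029092 to 51035230), *KLK13* (51055626 to 51065114), and *KLK14* (51077495 to 51084245). A promoter sequence, defined as 250 bases before to 50 bases after a transcription start, was found in RefSeq (GRCh38.p14) for 9 of the 10 genes, and *KLK8* had no entry. Where a gene had several starts, as *KLK7* (3) and *KLK10* (2) did, only the start nearest that of the canonical transcript was used. The 4 promoters of members that were measured in both experiments are shown because these members lie in the same cluster and their differences were of unequal size. They run 5′ to 3′ on the minus strand, at chr19:50952989-50953288 for *KLK5*, chr19:50969542-50969841 for *KLK6*, chr19:50983868-50984167 for *KLK7*, and chr19:51019660-51019959 for *KLK10*, and capitals mark matches on either strand to AGGAAG, a core recognised by ETS factors, and to GGGCGG, the GC box recognised by SP1:
KLK5: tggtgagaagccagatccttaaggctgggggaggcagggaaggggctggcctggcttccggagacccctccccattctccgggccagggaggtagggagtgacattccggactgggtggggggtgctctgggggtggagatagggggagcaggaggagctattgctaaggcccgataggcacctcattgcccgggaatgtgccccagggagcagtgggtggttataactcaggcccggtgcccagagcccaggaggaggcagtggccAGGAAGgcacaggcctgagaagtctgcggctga
KLK6: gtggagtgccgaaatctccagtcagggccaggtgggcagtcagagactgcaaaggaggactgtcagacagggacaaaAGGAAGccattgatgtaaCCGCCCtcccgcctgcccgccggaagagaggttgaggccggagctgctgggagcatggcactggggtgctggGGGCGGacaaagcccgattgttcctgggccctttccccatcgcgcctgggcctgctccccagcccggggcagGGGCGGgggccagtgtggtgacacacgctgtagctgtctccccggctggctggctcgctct
KLK7: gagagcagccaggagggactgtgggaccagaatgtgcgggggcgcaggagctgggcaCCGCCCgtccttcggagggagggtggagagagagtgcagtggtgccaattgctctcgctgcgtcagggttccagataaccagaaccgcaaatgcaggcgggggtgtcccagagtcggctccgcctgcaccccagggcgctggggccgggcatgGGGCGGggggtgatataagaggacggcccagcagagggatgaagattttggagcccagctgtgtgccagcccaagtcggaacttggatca
KLK10: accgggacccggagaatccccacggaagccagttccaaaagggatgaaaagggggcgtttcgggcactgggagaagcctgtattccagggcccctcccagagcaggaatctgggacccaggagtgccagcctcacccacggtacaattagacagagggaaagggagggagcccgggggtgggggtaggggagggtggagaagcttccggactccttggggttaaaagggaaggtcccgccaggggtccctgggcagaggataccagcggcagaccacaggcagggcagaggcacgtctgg

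Their GC contents were 64.7% (*KLK5*), 66.3% (*KLK6*), 65.0% (*KLK7*), and 63.7% (*KLK10*), against a median of 58.7% and quartiles of 47.0% and 68.0% over 35116 RefSeq promoters of the same length. AGGAAG was found in 6 of the 9 promoters, among them *KLK5* and *KLK6*, and in 33.6% of all promoters. GGGCGG was found in 6 of 9, with 3 matches in *KLK6* and 2 in *KLK7*, and in 45.0% of all promoters, so neither share can be read as particular to the family with 9 sequences. No match was found in the 9 promoters to the AP-1 site TGANTCA (7.71% of all promoters), the TATA box TATAAA (11.5%), the steroid receptor half-site AGAACA (14.8%), the GRHL site AACNNGTT (3.52%), or the p53 half-site (6.63%). All letters were searched on both strands of these 300 bases only, and a match or its absence says nothing about binding.

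By the deposited FPKM, *KLK8* and *KLK6* had the highest levels per length among the members in cells with siCTRL. *KLK8*, which encodes neuropsin, had a mean of 71.8 FPKM and *KLK6*, which encodes neurosin, 66.9 FPKM, and their ranges (63.6 to 79.9 and 57.8 to 76.1 FPKM) overlapped. *KLK7* followed at 34.9 FPKM, *KLK10* at 23.1, *KLK5* at 5.30, and *KLK13* at 1.00, each without overlap with its neighbours in the order. The row named *KLK9* (0.120 FPKM) and *KLK14* (0.0400 FPKM) were close to 0, and their ranges overlapped. *KLK8* lay above 91.4% and *KLK6* above 90.7% of all genes in the siRNA table, and *KLK5* above 46.3%.

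In *ZMAT3*-WT the order per kb of the canonical transcript was nearly the same. *KLK6* had a mean of 27.1 CPM per kb, *KLK8* 13.2, *KLK7* 8.20, *KLK10* 2.84, and *KLK5* 1.15, and no neighbouring ranges overlapped. *KLK8* was the gene whose place differed between the tables. It shares 747 of its 1865 exon bases (40.1%) with *KLK9* or with a transcript locus (ENSG00000269741) that spans both genes, so its reads could be split by the counting. The row named *KLK9* carries the identifier of that locus and not that of *KLK9* (ENSG00000213022), and its values are therefore not those of *KLK9* alone. The deposited FPKM of *KLK8* times its canonical length was 97.4 per unit of the authors' mean signal, against a median of 43.7 over 11366 genes (5th to 95th percentile 33.4 to 120), and for *KLK6* the value was 34.6, so the place of *KLK8* depends on the length assigned to it. The authors' mean signal over the 4 libraries, divided by the canonical length, was 1368 per kb for *KLK6*, 710 for *KLK7*, 593 for *KLK8*, and 245 for *KLK10*, which puts *KLK8* below *KLK7*.

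Loss of ZMAT3 went with lower levels of the 5 measured kallikreins, by 12.7-fold for *KLK5* and by 1.75-fold to 2.89-fold for *KLK6*, *KLK7*, *KLK8*, and *KLK10*. *KLK5*, which encodes an enzyme able to activate itself and other kallikreins, was the lowest expressed of them. It stood at 0.57, 1.10, and 0.66 log2 CPM in *ZMAT3*-WT and at -4.26, -2.24, and -2.16 in *ZMAT3*-KO, a log2 fold change of -3.66 (SE 0.476). The 3 *ZMAT3*-KO libraries lay below the 3 *ZMAT3*-WT libraries, and *ZMAT3*-KO replicate 1 lay apart from the other two. Its value was under the -3.81 log2 CPM that 3 reads would have if the lowest value in the table stood for no reads with an offset of 0.5, and under that assumption the size of the *KLK5* difference rests on very few reads. The libraries of this experiment shared their lowest, median, and highest values, so the assumption may not hold and the number of reads is unknown. Without *ZMAT3*-KO replicate 1 the log2 fold change of *KLK5* was -2.98, and with 1 CPM added to the values of all libraries it was -1.23, a smaller difference than that of *KLK6* under the same setting (-1.46).

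*KLK7*, the chymotrypsin-like partner of *KLK5* in skin shedding, stood at 3.97, 4.03, and 4.01 log2 CPM in *ZMAT3*-WT and 3.28, 3.11, and 3.19 in *ZMAT3*-KO, a log2 fold change of -0.81 (SE 0.0570). This was the smallest difference of the 5, and the groups did not overlap.

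*KLK6*, whose enzyme cuts myelin proteins and which is often raised in colorectal tumours, had the narrowest spread. Its values were 5.26, 5.27, and 5.31 log2 CPM in *ZMAT3*-WT and 3.73, 3.72, and 3.79 in *ZMAT3*-KO, a log2 fold change of -1.53 (SE 0.0427). *KLK8* stood at 3.72, 3.55, and 3.50 log2 CPM in *ZMAT3*-WT and at 2.71, 2.55, and 2.74 in *ZMAT3*-KO (log2 fold change -0.92, SE 0.0764). *KLK10*, first described as a gene silenced in breast tumour cells and encoding a protein with little proteolytic activity, stood at 3.09, 3.16, and 2.99 log2 CPM in *ZMAT3*-WT and at 2.06, 1.81, and 2.09 in *ZMAT3*-KO (log2 fold change -1.10, SE 0.0885). In each of these genes the lowest *ZMAT3*-WT library was above the highest *ZMAT3*-KO library.

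**Figure D1:**
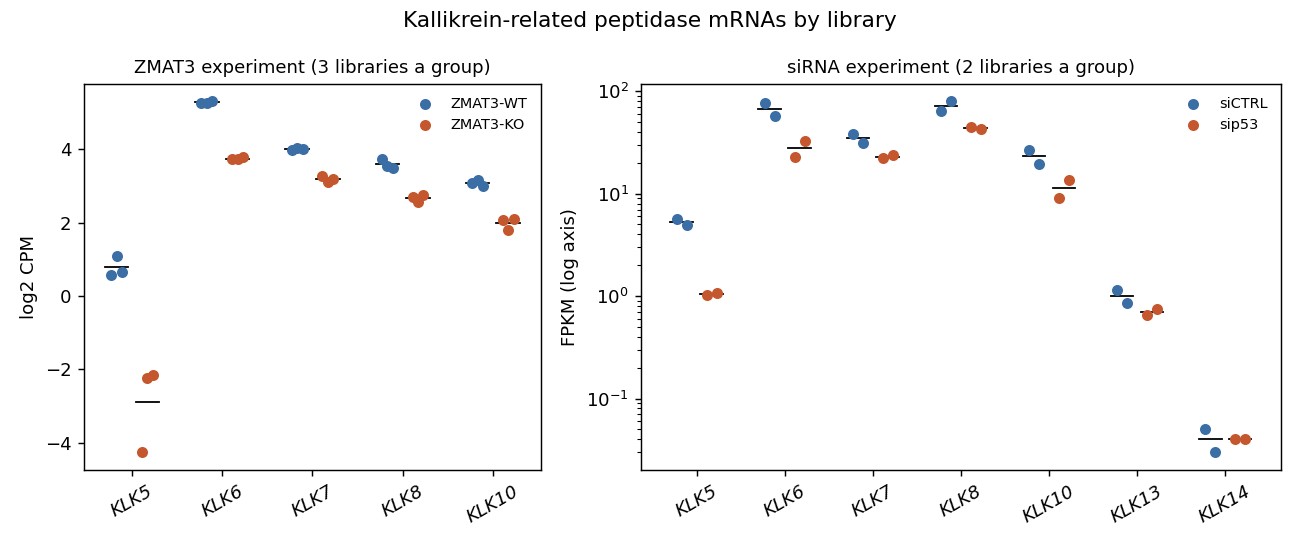
Levels of the kallikrein-related peptidases in each library. Left, log2 CPM in 3 *ZMAT3*-WT and 3 *ZMAT3*-KO libraries. Right, FPKM on a log axis in 2 siCTRL and 2 sip53 libraries. Points are libraries and bars are group means. *ZMAT3*-KO and *ZMAT3*-WT points are apart for all 5 genes, with *KLK5* in *ZMAT3*-KO replicate 1 at -4.26 log2 CPM, while the *KLK14* points overlap near 0.04 FPKM. The row named *KLK9* is not drawn.

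In limma's test over the 13029 genes (two-sided, Benjamini-Hochberg adjustment), where a call needed an adjusted p of 0.05 and 1.5-fold, 5 of the 5 measured members were called lower and 0 higher, beside 4.37% of all genes called lower and 4.60% higher. The groups did not overlap, with *ZMAT3*-KO lower, in 5 of 5 members and in 32.9% of all genes. The median log2 fold change was -1.10 for the members and -0.00523 for all genes. Nothing is read from these counts, because the contrast was known when the family was chosen. In bulk RNA, fewer cells that make a transcript and less of it per cell cannot be told apart.

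Knockdown of p53 went with lower levels of the same 5 genes. The estimates ran in the order *KLK5*, *KLK6*, *KLK10*, *KLK8*, *KLK7* in both experiments, but that order was not tested. Without siCTRL replicate 1, *KLK8* (log2 fold change -0.87) passed *KLK10* (-0.82). With sip53 the ranges of ± SE overlapped for *KLK6* and *KLK10*, for *KLK10* and *KLK8*, and for *KLK8* and *KLK7*. In *ZMAT3*-KO those of *KLK8* and *KLK7* overlapped too. *KLK5* was measured at 5.72 and 4.89 FPKM in the siCTRL and at 1.02 and 1.08 FPKM in the sip53 libraries, a log2 fold change of -2.23 (SE 0.238) on the log2(FPKM + 0.1) scale, or 4.69-fold lower. *KLK7* stood at 38.32 and 31.55 FPKM with siCTRL and at 22.16 and 23.90 with sip53 (log2 fold change -0.59, SE 0.190). Both sip53 libraries were below both siCTRL libraries for these genes, by a wide gap for *KLK5* and a narrow one for *KLK7*.

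*KLK6* was at 76.06 and 57.75 FPKM in the siCTRL libraries and at 22.79 and 32.67 FPKM in the sip53 libraries, a log2 fold change of -1.28 (SE 0.260). *KLK10* stood at 26.64 and 19.64 FPKM with siCTRL and at 9.06 and 13.60 with sip53 (log2 fold change -1.04, SE 0.278). For both genes the first siCTRL library was the highest and the first sip53 library the lowest. *KLK8* stood at 63.63 and 79.91 FPKM with siCTRL and at 45.01 and 42.42 with sip53 (log2 fold change -0.71, SE 0.198), and here the second siCTRL library was the highest. The reads of *KLK8* can be shared with the locus that overlaps it.

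*KLK13*, a trypsin-like member, was at 1.14 and 0.86 FPKM in the siCTRL and at 0.65 and 0.74 FPKM in the sip53 libraries, a log2 fold change of -0.46 (SE 0.365). Its groups did not overlap, and it was not called. *KLK14*, at 0.05 and 0.03 FPKM with siCTRL and 0.04 and 0.04 with sip53, and the row named *KLK9*, at 0.24 and 0.00 FPKM and at 0.17 and 0.15, were under the filter of a mean of 0.5 FPKM and were not tested. Their authors' mean signals were 1.21 and 5.30, against 1955 for *KLK6*, 1387 for *KLK7*, 731 for *KLK10*, 543 for *KLK8*, 121 for *KLK5*, and 20.7 for *KLK13*.

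With a call at an unadjusted p of 0.05 in limma's test, 5 of the 6 members that passed the filter were called lower and 0 higher, where 9.28% of the 14274 genes tested were called lower and 5.86% higher. The split over all genes was 836 higher and 1325 lower (38.7% higher), and it became 1120 higher and 1048 lower (51.7% higher) when each library was centred on its median gene. No member passed an adjusted p of 0.05, as only 39 of all genes did. Groups did not overlap, with sip53 lower, in all 6 tested members and in 26.3% of all genes tested. The median log2 fold change was -0.87 for the 6 members and -0.0405 for all genes. These counts, too, come from a contrast known beforehand and are not read as evidence. The calls of *KLK7*, *KLK8*, and *KLK10* did not hold in every fit that left out 1 library. In these fits 1 group kept a single library and the errors were larger. A lost call therefore does not show that the call depended on the library left out. *KLK7* was no longer called when any 1 of the 4 libraries was left out (log2 fold change -0.73 to -0.45), *KLK8* not without siCTRL replicate 2 (-0.54) or sip53 replicate 2 (-0.66), and *KLK10* not without siCTRL replicate 1 (-0.82). Exons on the opposite strand cover 12.2% of the exon bases of *KLK5*, 20.5% of *KLK6*, and 6.32% of *KLK10*, and whether the siRNA libraries were counted by strand is not given in the sources used here.

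**Figure D2:**
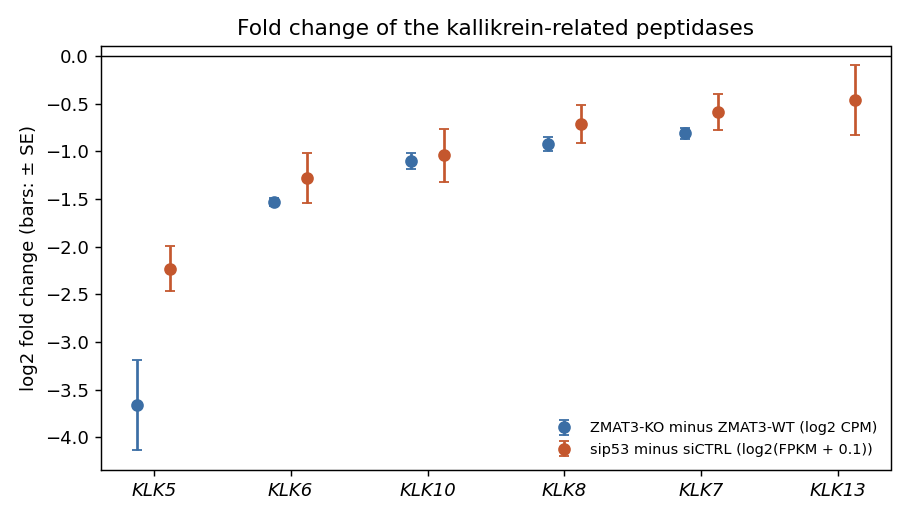
Log2 fold change of each kallikrein-related peptidase, as *ZMAT3*-KO minus *ZMAT3*-WT on log2 CPM and as sip53 minus siCTRL on log2(FPKM + 0.1). Points are limma estimates and bars are ± SE. All 11 points lie below 0, from -3.66 for *KLK5* in *ZMAT3*-KO to -0.46 for *KLK13* with sip53. The bars of *KLK6*, *KLK10*, *KLK8*, and *KLK7* with sip53 overlap between neighbours in that order. Those of *KLK8* and *KLK7* also overlap in *ZMAT3*-KO.

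The mix of kallikrein mRNAs was described in each library, beside their sum. The members summed to 212 and 195 FPKM in the siCTRL and to 101 and 115 FPKM in the sip53 libraries. *KLK6* and *KLK8* together made up 66.0% and 70.7% of that sum with siCTRL and 67.2% and 65.5% with sip53, shares that rest on the FPKM of *KLK8* and the length behind it. By the authors' mean signal per kb, *KLK8* alone was 19.7% of the members' sum and *KLK6* 45.4%. In FPKM *KLK5* made up 2.70% and 2.51% with siCTRL and 1.01% and 0.942% with sip53. Relative to *KLK7* in the same library, *KLK6* on the log2 scale was 1.29, 1.24, and 1.30 higher in *ZMAT3*-WT and 0.45, 0.60, and 0.60 higher in *ZMAT3*-KO. With siCTRL the same difference was 0.99 and 0.87, and with sip53 it was 0.04 and 0.45. *KLK5* relative to *KLK7* stood at -3.40, -2.93, and -3.35 in *ZMAT3*-WT, at -7.54, -5.35, and -5.36 in *ZMAT3*-KO, at -2.74 and -2.69 with siCTRL, and at -4.44 and -4.47 with sip53. The groups did not overlap for either ratio in either experiment. Among the members measured in both experiments, *KLK7* had the smallest difference and *KLK5* and *KLK6* the largest. These ratios therefore restate the fold changes above, and they were not compared with ratios of other genes. *KLK8* relative to *KLK7* did overlap between groups, at -0.25, -0.48, and -0.51 in *ZMAT3*-WT, -0.56, -0.57, and -0.46 in *ZMAT3*-KO, 0.73 and 1.34 with siCTRL, and 1.02 and 0.83 with sip53.

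The measured kallikreins on the other side of *KLK5* were not lower with sip53. *KLK1*, which encodes tissue kallikrein, the enzyme that releases kinins, stood at 2.52 and 1.11 FPKM with siCTRL and at 3.23 and 5.20 with sip53. Its log2 fold change was 1.24 (SE 0.454; limma, unadjusted p = 0.0384, adjusted p = 0.298), so it was called higher at the unadjusted threshold only. *KLK4*, which encodes an enzyme that matures dental enamel, stood at 0.57 and 0.86 FPKM with siCTRL and at 1.32 and 1.07 with sip53 (log2 fold change 0.68, SE 0.375; limma, unadjusted p = 0.124, adjusted p = 0.459) and was not called. Neither gene was in the *ZMAT3* table, and *KLK2*, *KLK3*, and *KLK15* were in neither table.

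Genes within 500 kb on either side of the family were described in the same way. In the *ZMAT3* experiment 10 such genes were measured, of which 0 were called higher and 1 lower, with a median log2 fold change of 0.17. The called gene, *LRRC4B*, lies at -384.7 kb from *KLK5* and fell by 0.79 on the log2 scale (SE 0.159, limma adjusted p = 0.000937). With sip53, 16 were tested, 1 was called higher and 1 lower, and the median was 0.01. *EMC10*, a subunit of the complex that inserts proteins into the endoplasmic reticulum membrane, stood at 71.94 and 63.10 FPKM with siCTRL and at 18.69 and 20.94 with sip53 (log2 fold change -1.76, SE 0.184; limma, unadjusted p = 0.000141, adjusted p = 0.0503). It lies at -476.7 kb from *KLK5*, beyond *KLK1*, and in *ZMAT3*-KO its log2 fold change was 0.25 (SE 0.0381). *CLDND2* rose from 0.37 and 0.10 FPKM to 0.87 and 0.83 FPKM (log2 fold change 1.63, SE 0.591; limma, unadjusted p = 0.0369, adjusted p = 0.295). Its siCTRL mean was 0.235 FPKM, so it passed the filter of 0.5 FPKM only through its sip53 libraries and its call is not read as evidence.

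**Figure D3:**
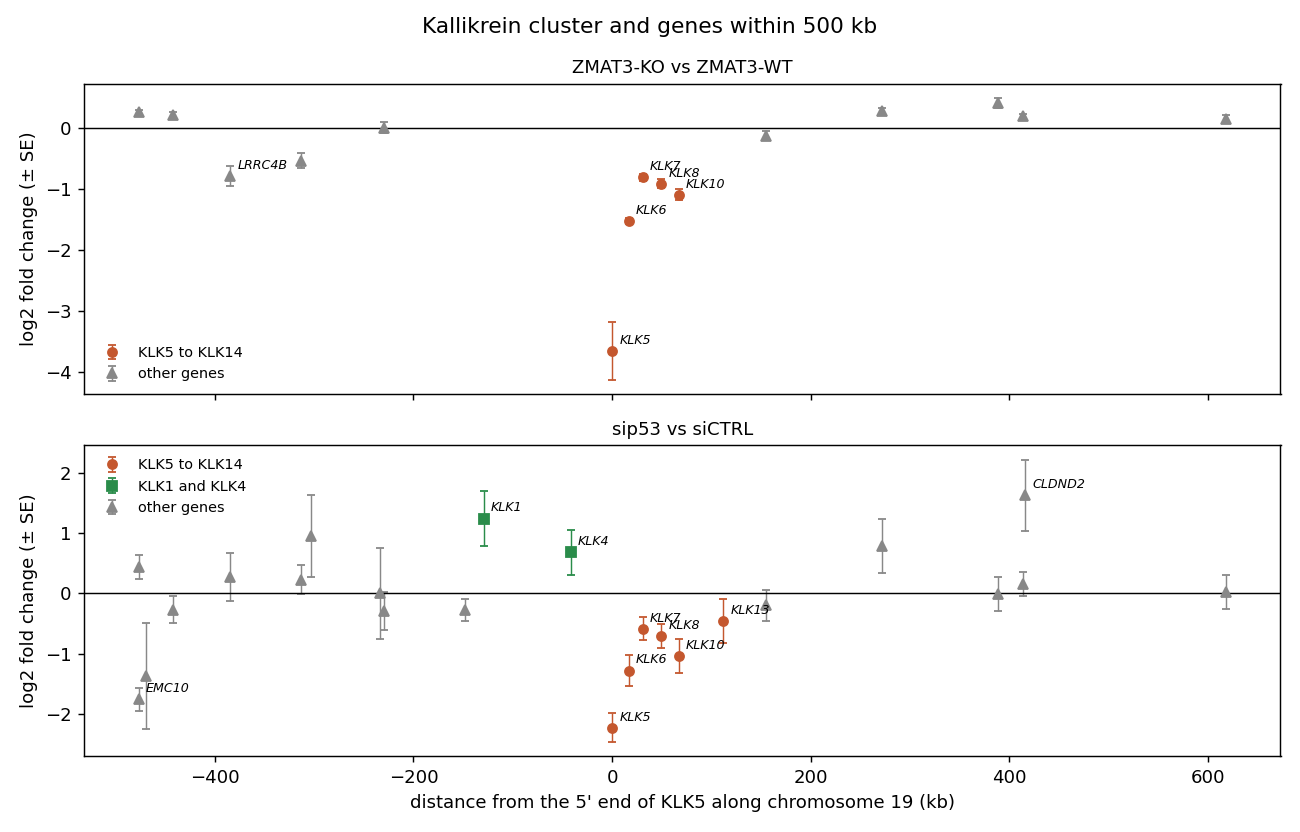
Log2 fold changes (± SE) of the kallikrein-related peptidases, *KLK1*, *KLK4*, and the other measured genes within 500 kb of the family, by the distance of their 5′ ends from that of *KLK5* in kb. Top, *ZMAT3*-KO against *ZMAT3*-WT, and bottom, sip53 against siCTRL. The points of *KLK5* to *KLK10*, and of *KLK13* in the bottom panel, lie below 0, *KLK1* and *KLK4* lie above 0 in the bottom panel, and the other genes lie on both sides of 0.

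Of the inhibitors of serine proteases, 8 were measured in the *ZMAT3* experiment and 0 were called in either direction (median log2 fold change -0.15). *SPINK5*, which encodes LEKTI, had no row in either table. *SPINT1* and *SPINT2*, which encode membrane inhibitors of trypsin-like proteases, had log2 fold changes of 0.13 (SE 0.0381) and -0.04 (SE 0.0298) in *ZMAT3*-KO. With sip53, 11 inhibitors were tested, 3 were called higher and 2 lower, with a median of 0.03. *SERPINA3*, which encodes antichymotrypsin, rose from 1.23 and 1.04 FPKM to 3.07 and 4.99 (log2 fold change 1.71, SE 0.322; limma, unadjusted p = 0.00259, adjusted p = 0.125). *SLPI*, a secreted inhibitor of leukocyte elastase, rose from 1.98 and 1.76 FPKM to 4.22 and 4.77 (log2 fold change 1.22, SE 0.225; limma, unadjusted p = 0.00231, adjusted p = 0.123). *SERPINB5*, which encodes maspin, fell by 0.82 on the log2 scale at the unadjusted threshold. *SERPINA5* was the third gene called higher, with a log2 fold change of 0.54.

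Among receptors and proteins that kallikreins are known to cut, 12 were measured in the *ZMAT3* experiment, of which 0 were called higher and 3 lower, with a median of 0.03. *F2RL1*, which encodes the receptor PAR2, stood at 7.90, 7.89, and 7.92 log2 CPM in *ZMAT3*-WT and at 7.08, 7.06, and 7.06 in *ZMAT3*-KO (log2 fold change -0.83, SE 0.0265, limma adjusted p = 5.52e-11). With sip53 it differed the other way, from 37.54 and 43.08 FPKM with siCTRL to 96.00 and 64.73 (log2 fold change 0.97, SE 0.249; limma, unadjusted p = 0.0101, adjusted p = 0.191). *F2RL1* was called in both experiments, and the difference between its changes was not tested because the tables were normalized separately. *FN1*, which encodes fibronectin, fell by 0.88 on the log2 scale in *ZMAT3*-KO (SE 0.0683, limma adjusted p = 3.02e-07). Of 15 such genes tested with sip53, 2 were called higher and 1 lower, with a median of 0.18. *PLAUR*, the urokinase receptor, rose by a log2 value of 0.46, and *IGFBP3*, a binding protein of insulin-like growth factors, fell by 1.67 on the log2 scale (SE 0.352; limma, unadjusted p = 0.00423, adjusted p = 0.150).

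Other trypsin-fold serine proteases outside the cluster were called in both directions. In *ZMAT3*-KO, 2 of 8 were called higher and 1 lower, with a median of 0.00, and with sip53, 1 of 10 was called higher and 2 lower, with a median of -0.18, and no difference from the kallikreins was tested. *PRSS3*, which encodes mesotrypsin, was called higher in both experiments. It stood at 4.77, 4.70, and 4.70 log2 CPM in *ZMAT3*-WT and at 5.39, 5.26, and 5.34 in *ZMAT3*-KO (log2 fold change 0.61, SE 0.0434, limma adjusted p = 1.41e-07). In the siRNA experiment it stood at 38.69 and 42.70 FPKM with siCTRL and at 64.91 and 61.23 with sip53 (log2 fold change 0.63, SE 0.175; limma, unadjusted p = 0.0137, adjusted p = 0.209). *TMPRSS13*, a membrane-bound protease, rose by a log2 value of 1.56 (SE 0.198) and *PRSS23* fell by 0.66 (SE 0.0787) in *ZMAT3*-KO. *PRSS22* fell by 0.99 (SE 0.247) and *PRSS12* fell by 0.70 (SE 0.186) on the log2 scale with sip53.

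Kallikrein genes are known to respond to steroid and retinoid signals and to be active in differentiating epithelia, so these groups were counted too. None of the 9 nuclear hormone and retinoid receptors measured in *ZMAT3*-KO was called, with 0 higher and 0 lower (median 0.05), and likewise 0 of 9 with sip53. Of 11 transcription factors of epithelial differentiation, 1 was called higher and 3 lower in *ZMAT3*-KO, with a median of -0.09. *EHF*, an ETS family factor of epithelial cells, stood at 5.47, 5.51, and 5.47 log2 CPM in *ZMAT3*-WT and at -2.93, -3.61, and -3.90 in *ZMAT3*-KO (log2 fold change -8.96, SE 0.200, limma adjusted p = 1.82e-12). *ZMAT3*-KO replicate 3 was under the level of -3.81 given above for 3 reads, which rests on the same assumption. With sip53 *EHF* was not called, at 88.33 and 78.19 FPKM in the siCTRL libraries and 86.09 and 81.57 in the sip53 libraries (log2 fold change 0.01, SE 0.180). *HNF4A*, a factor of intestinal and liver epithelium, fell by 1.48 (SE 0.0841) and *ELF3*, another ETS family factor, fell by 0.65 (SE 0.0424) on the log2 scale in *ZMAT3*-KO. *GRHL3*, a grainyhead-like factor of the epidermal barrier, rose there by a log2 value of 3.14 (SE 0.170, limma adjusted p = 1.01e-08). With sip53, 0 of 10 such factors were called in either direction, with a median of 0.08.

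Genes of the cornified envelope were counted together with keratins of stratified epithelia. Of 6 such genes measured in *ZMAT3*-KO, 0 were called higher and 1 lower, with a median of -0.32. Of 9 tested with sip53, 2 were called higher and 1 lower, with a median of 0.35. *KRT13*, a keratin of stratified epithelia, was called lower in both, with an unexplained SD of 0.00 among its *ZMAT3*-KO values. It stood at 0.37, 0.38, and -0.15 log2 CPM in *ZMAT3*-WT and at -2.54 in each *ZMAT3*-KO library (log2 fold change -2.74, SE 0.288, limma adjusted p = 4.82e-06), and at 3.24 and 2.92 FPKM in the siCTRL libraries and 1.13 and 1.08 in the sip53 libraries (log2 fold change -1.40, SE 0.252; limma, unadjusted p = 0.00210, adjusted p = 0.123). *SPRR2D*, a small proline-rich protein gene, rose from 0.17 and 0.07 FPKM to 0.93 and 1.64 with sip53 (log2 fold change 2.64, SE 0.551; limma, unadjusted p = 0.00406, adjusted p = 0.150). With a siCTRL mean of 0.120 FPKM, *SPRR2D* passed the filter of 0.5 FPKM only through its sip53 libraries, so its call is not read as evidence. *CSTA*, which encodes cystatin A, rose by a log2 value of 0.90 (SE 0.221) with sip53. Of the 7 colorectal markers, 4 keratins of simple epithelia were called lower in *ZMAT3*-KO and 0 markers higher, with a log2 fold change of -1.75 for *KRT19* (SE 0.0316), -1.47 for *KRT20* (SE 0.143), -0.94 for *KRT8* (SE 0.0320), and -0.82 for *KRT18* (SE 0.0283). The other markers, *EPCAM* (0.01), *CDH1* (0.05), and *CDX2* (-0.09), were not called in *ZMAT3*-KO. None of these keratins was called with sip53, where *EPCAM* was called higher (log2 fold change 0.60, SE 0.190; limma, unadjusted p = 0.0234, adjusted p = 0.247).

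**Figure D4:**
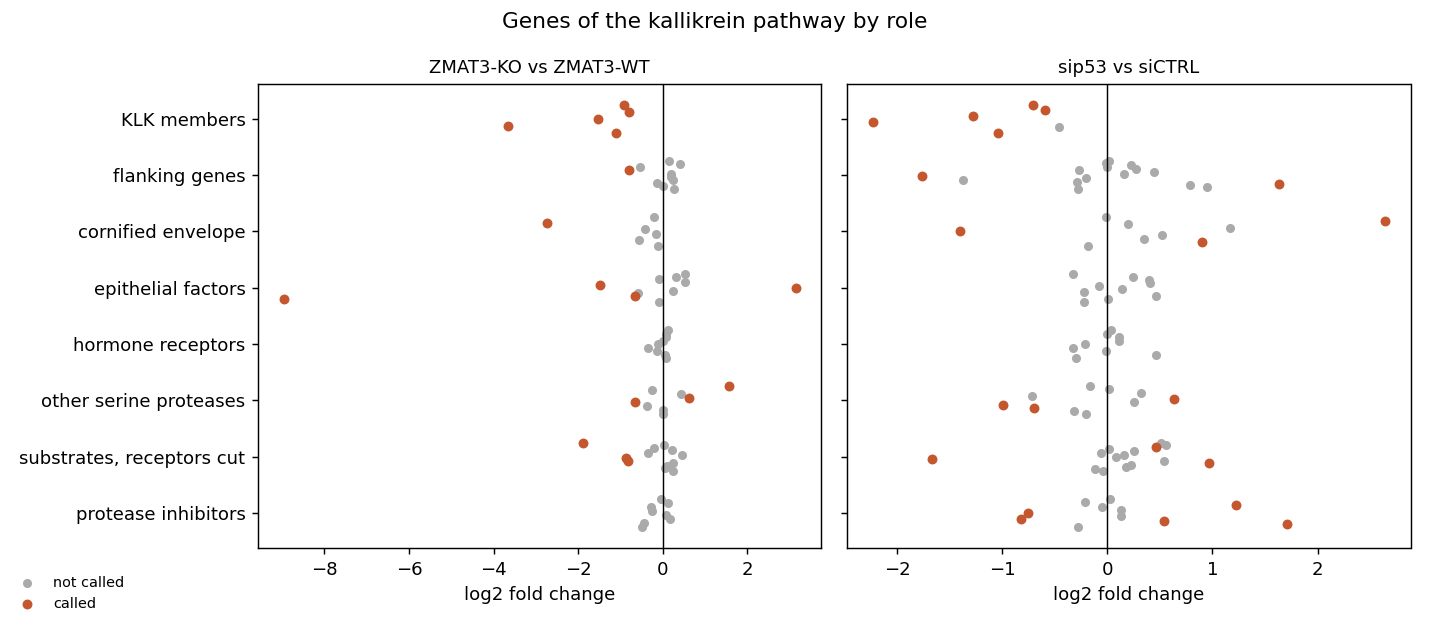
Log2 fold changes of the genes of each group, from protease inhibitors to the kallikrein-related peptidases (KLK members), in *ZMAT3*-KO against *ZMAT3*-WT and in sip53 against siCTRL. Each point is a gene, coloured where called (adjusted p of 0.05 and 1.5-fold on the left, unadjusted p of 0.05 on the right). All KLK points lie left of 0 in both panels, and the far left point in the left panel is *EHF* at -8.96.

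The inhibitors, cut proteins, other proteases, hormone receptors, epithelial factors, cornified envelope genes with stratified keratins, and flanking genes were also counted together. *KLK1* and *KLK4* were added with sip53, and the colorectal, fibroblast, and immune markers were left out. In *ZMAT3*-KO 64 genes were tested, of which 3 were called higher and 9 lower (median log2 fold change 0.00), beside 4.60% of all genes called higher and 4.37% lower. With sip53 82 were tested, of which 10 were called higher and 7 lower (median 0.06), beside 5.86% and 9.28% of all genes tested. *SPRR2D* and *CLDND2*, which are among the 10, passed the filter only through their sip53 values. Of these 82, 0 passed an adjusted p of 0.05 in limma's test.

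The genes whose values were most like those of each kallikrein over the 10 libraries were named by the Euclidean distance of log2 values centred on the control group of each experiment, among 11370 genes tested in both. For *KLK5* these were *KRTAP2-3*, a keratin-associated protein gene (distance 2.24), *ZMAT3* itself (2.25), and *KRT23*, a keratin gene (2.48), where the median gene was at 7.29. *KLK6* had closer neighbours, namely *ANO1*, a calcium-activated chloride channel gene (0.452), *ADAMTS14*, a procollagen-processing metalloproteinase gene (0.628), and *KRT80*, another keratin gene (0.641), against a median of 3.27. Nearest to *KLK10* were *MLPH* (0.375), *EOMES* (0.442), and *DHRS3* (0.462), against a median of 2.51. *KLK8* was nearest to *CES3* (0.327), *GAS6* (0.353), and *HLA-F* (0.355), against 2.00, and *KLK7* to *PIGO* (0.193), *TMEM59L* (0.320), and *CHST11* (0.338), against 1.76. No kallikrein was among the 3 nearest genes of another kallikrein. The distance grows with the size of the change, so it cannot be compared between members. It also takes in the group differences, which were known when the family was chosen, so nearness is not read as evidence. *ZMAT3* was the edited gene of 1 experiment, and with sip53 its log2 fold change was -2.31.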

How the data were processed

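Libraries were grouped by their labels, 3 *ZMAT3*-WT, 3 *ZMAT3*-KO, 2 siCTRL, and 2 sip53, and deposited columns were matched to them by their names. For the *ZMAT3* libraries the authors used Cutadapt for trimming, STAR for alignment to hg38 and RSEM for quantification, and deposited log2 CPM values, whose 6 libraries had the same lowest (-6.62) and highest value (13.51) and a median of 4.78 each. Levels are thus relative to a near-common distribution. For the siRNA experiment the authors deposited FPKM and a mean signal per gene over the 4 libraries, a pooled column on the scale of read counts that is printed only as the authors' mean. The submitters' processing notes list CASAVA 1.8.2, TopHat2 2.0.8, and FastQC 0.11.2, and the builds hg19 and hg38, without roles. Both deposited tables also hold the authors' own fold changes and p-values, which were not used. No column of counts per library was used, so depth is unknown and no counting interval was given.

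Each experiment was tested alone with limma 3.58.1 in R 4.3.3 (two-sided moderated test by lmFit and eBayes, trended prior variance, Benjamini-Hochberg adjusted). The log2 CPM values were not filtered, and log2(FPKM + 0.1) was used where the mean reached 0.5 FPKM. After the paper's thresholds, *ZMAT3* calls required 1.5-fold and an adjusted p of 0.05, and siRNA calls an unadjusted p of 0.05. With 3 or 2 libraries a group an exact permutation test cannot give a p under 0.1 or 0.333. The fits were tested on simulated data with independent noise, in which 200 genes were changed by 1 on the log2 scale. The real data can differ in the number and size of changes and in correlation between libraries. The shares that follow hold for the simulated setting only. At an adjusted p of 0.05 limma recovered 94% of them for the *ZMAT3* experiment and 0% for the siRNA experiment. At an unadjusted p of 0.05 it recovered 79% for the siRNA experiment and called 5.85% of the unchanged genes. For changes of that size the absence of calls at an adjusted p with sip53 was therefore taken to carry little information. Members, gene lists, and tests were chosen with earlier results of these data known, and p-values measure the spread between these cultures only. Every member was named, with up to 4 called genes per list and experiment, the 3 genes nearest to each member, and *ZMAT3* and *CDKN1A* as checks of the labels. *SPINT1*, *SPINT2*, and *SPINK5* were named, and *EHF* and *EMC10* followed in the other experiment, after their values were seen. Coordinates and exon overlaps came from GENCODE release 44, promoters from RefSeq (GRCh38.p14), and the sums in the text from Python 3.11.15 with pandas 2.3.3 and numpy 2.4.6. Figures were drawn with matplotlib 3.10.9. Alternatives were a pseudocount of 1, other filters, median centring, no variance trend, a replicate block, other thresholds, and leaving out each library. Some called genes of the lists are counted but not reported by name here. Protein data were not analysed here.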

Additional observations from a re-analysis of the deposited data

How the results depend on the processing

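Under the alternatives no result reversed, and 109 alternative values for single members, among them those of *KLK13*, which was never called, stayed on their side of the threshold, while 9 lost the call. Of the counts and medians, 109 values stayed within 1.5 times or the spread, 12 were smaller, 4 larger, and 1 median moved. Some of these values had little room to move, so the tally is not a measure of robustness. Members called higher numbered 0 under every setting, and the *ZMAT3* libraries shared a median of 4.78 before any centring. In *ZMAT3*-KO the 5 members called lower became 3 at a 2-fold change and stayed 5 without each library in turn, and their median log2 fold change of -1.10 became -0.93 with a pseudocount of 1 CPM. Pathway genes called lower numbered 9, against 4 at a 2-fold change and 26 with no fold threshold, and those called higher 3, against 19 with no fold threshold. With no fold threshold 45 of the 64 pathway genes passed, beside 7659 of all 13029 genes, so this rise is not particular to the pathway. With sip53 the 5 members called lower became 3 with a replicate block, 3 to 4 without each library in turn, and 0 at an adjusted p of 0.05. Pathway genes called lower, 7 in the main test, ranged from 4 to 7 without each library, were 11 with the crossed pairing, and were 0 at an adjusted p of 0.05, and those called higher, 10, ranged from 6 to 9, were 21 with the crossed pairing, 4 at a mean of at least 5 FPKM, and 0 at an adjusted p of 0.05. The cause of these shifts beyond the changed threshold or number of libraries was not tested. *KLK5* could not be fitted at a mean log2 CPM of at least 0, nor *KLK5* and *KLK13* at a mean of at least 5 FPKM.

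Replicate numbers did not pair the *ZMAT3* libraries: deviations of same-numbered libraries from their group means correlated at -0.039, -0.022, and -0.093 across genes, and not every library correlated best with its own number. The replicate block there gave 603 higher and 575 lower genes, against 599 and 569, and all 5 members stayed called. In the siRNA experiment the correlation was -0.616 for same-numbered pairs and 0.616 for crossed pairs. With 2 libraries a group the deviations mirror each other, so these are a single value and not separate observations. A crossed pairing, chosen after seeing the data, gave 2410 higher and 3128 lower genes, against 434 and 650 with the replicate block and 836 and 1325 without it. *KLK7* and *KLK8* were not called with the block, at unchanged log2 fold changes of -0.59 and -0.71. Unknown depth, few libraries, and 1 clone per genotype limit these comparisons.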
